A study of Mus musculus with 8 samples.

Results

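The 40 genes described here encode the enzymes and switches of the cyclic AMP pathway: 8 adenylyl cyclases, 16 phosphodiesterases, 9 subunits and inhibitors of protein kinase A (PKA), 2 EPAC exchange factors and 5 transcription factors or coactivators of the CREB system. They were chosen by gene symbol from a table of 45706 genes, and all 40 were present and passed the filter on low counts that left 17000 genes for testing. RNA came from dissected hypothalamic tissue of mice of the genotype Mff fl/fl; AgRP-IRES-Cre tg/wt; RpL10a-GFP fl/wt. The mice were aged 11 to 12 weeks, of mixed sexes and killed in the random-fed state. In these mice Cre made under the Agrp locus removes Mff, the gene of mitochondrial fission factor, and switches on a GFP-tagged ribosomal protein in the same cells. Ribosomes carrying the tag were pulled from the homogenate with anti-GFP antibodies. The RNA bound to them (immunoprecipitate, IP, 4 libraries) was compared with RNA of the homogenate (input, 4 libraries), each library a pool of 3 mice. Both fractions came from these mice, but the deletion is made in the tagged cells and input holds RNA of other cells as well. Control-genotype libraries are not analysed here. The comparison therefore shows which cAMP genes are relatively abundant on ribosomes of the tagged cells. An effect of Mff loss cannot be told apart from the identity of these cells.

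Cyclic AMP is made from ATP by adenylyl cyclases, most of which sit in the plasma membrane and are switched on by the G protein Gs and off by Gi. Phosphodiesterases hydrolyse it, and each family has its own substrate preference and its own regulator, such as calcium with calmodulin, cyclic GMP or phosphorylation. Within the cell cAMP binds the regulatory subunits of PKA, which then release active catalytic subunits, or EPAC proteins, which activate Rap GTPases. PKA phosphorylates CREB and, through the kinases that hold CRTC coactivators in the cytoplasm, controls transcription of cAMP-responsive genes. AgRP neurons are hunger-promoting cells of the arcuate nucleus in which this pathway relays signals of hormone and peptide receptors coupled to Gs and Gi.

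Libraries held 39.9 to 74.6 M estimated counts (M for 1000000), and all 10 listed AgRP neuron markers were higher in IP, with a summed level of 115 to 133 counts per 1000000 (CPM, with TMM-scaled library totals) in input and 3259 to 4953 CPM in IP. Among all genes tested, 24.5% were called higher in IP and 20.9% lower. The marker lists were chosen with earlier results of these data known, so their counts are a description and not an independent check. Agrp itself stood at 3.35 ± 0.741 CPM in input and 843 ± 170 CPM in IP (SD, n = 4), and Npy at 13.8 ± 0.874 and 1943 ± 449.6 CPM. The targeted gene Mff measured 112 to 132 CPM in input and 64.0 to 71.2 CPM in IP, lower in every IP library (-0.86 ± 0.07, adjusted p = 3.06e-06). Without control-genotype libraries, the deletion and a lower level of Mff in the tagged cells cannot be told apart. IP replicates lay further apart than input replicates, with a median absolute difference between libraries of 0.18 to 0.24 in log2 CPM against 0.09 to 0.11. IP replicate 3 gave the 3 largest of the IP differences (0.22 to 0.24), and calls that depend on it are given below. Markers of other cells fell: 8 of 8 astrocyte markers (summed level 2585 to 3225 CPM in input and 781 to 1046 CPM in IP), 8 of 8 oligodendrocyte markers (2111 to 2663 and 606 to 884 CPM), 4 of 4 oligodendrocyte precursor markers (116 to 136 and 28.5 to 47.1 CPM), 6 of 7 microglia markers (49.4 to 60.7 and 14.2 to 18.3 CPM), 2 of 6 vascular markers (31.6 to 38.9 and 10.4 to 28.9 CPM), 3 of 4 tanycyte and ependymal markers (31.1 to 39.3 and 9.06 to 14.9 CPM), 6 of 8 markers of other arcuate neurons (177 to 222 and 87.4 to 119 CPM) and 7 of 7 markers of neurons in other nuclei (671 to 824 and 209.6 to 305 CPM). In input the markers of neurons in other nuclei summed above the AgRP neuron markers, so input was not RNA of the arcuate nucleus alone. None of the lists for other cells had a marker at 0 in all IP libraries, so RNA of other cells may remain in IP. Whether the marker RNA in IP came from other cells or from the tagged cells was not tested. The part of other cells in the levels below was not tested either. In such bulk samples fewer cells of a type and less RNA per cell cannot be told apart. Because IP is ribosome-bound RNA and input is homogenate RNA, cell of origin and ribosome association cannot be told apart either.

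Of the 40 cAMP pathway genes, 11 were higher in IP, 14 were lower and 15 did not pass the threshold, an adjusted p under 0.05 by the quasi-likelihood test of edgeR, adjusted over all tested genes. These are 27.5% and 35% of the members, beside 24.5% higher and 20.9% lower among all genes tested, and the 25 members called in either direction stand beside 45.4%. The median log2 fold change of the members was -0.16, beside -0.01 for all tested genes. By role the genes divided. Regulatory subunits of PKA had 3 of 4 members higher and the other not called, whereas the phosphodiesterases had 1 of 16 higher and 8 lower, and the adenylyl cyclases were split into 3 higher and 4 lower of 8. Groups of 4 did not overlap for 10 members that were higher in every IP library (25%, beside 24.1% of all genes) and for 14 that were lower in every IP library (35%, beside 24%). A 2-fold difference with a call was reached upward by 2 members (5%, beside 8.37%) and downward by 8 (20%, beside 12.3%). The count of higher members went to 7 with upper quartile scaling, which moves the median of all genes from -0.01 to -0.15 on the log2 scale and the higher share of all calls from 54.1% to 43.3%, and the lower members then numbered 20.

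**Figure D1:**
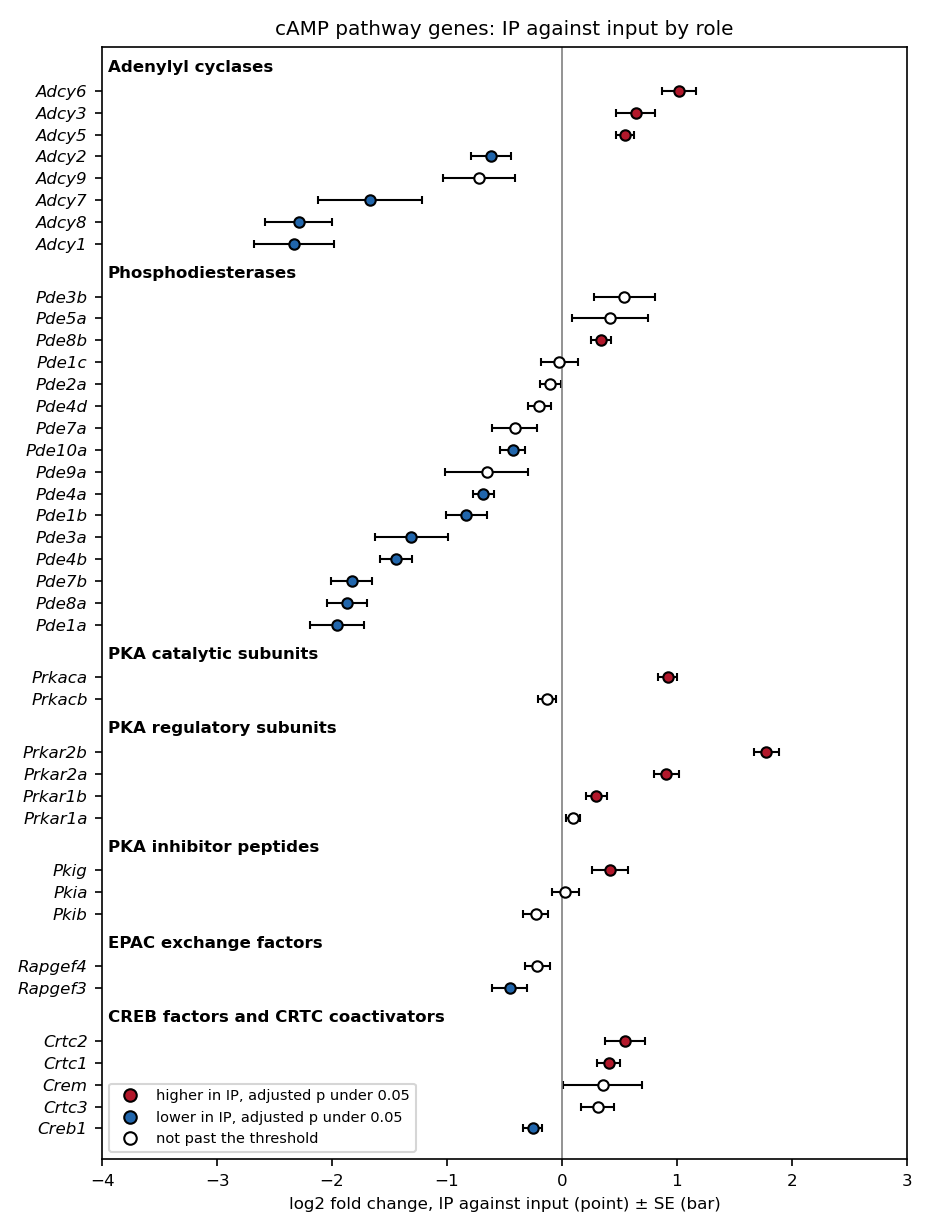
Log2 fold change of IP against input for each of the 40 genes, grouped by role, with bars for the standard error (4 libraries per fraction) and colour for the call. Points to the right are higher in IP. The lowest values are those of Adcy1 (-2.33) and Adcy8 (-2.29) and the highest that of Prkar2b (1.78).

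Among the adenylyl cyclases, both isoforms that calcium inhibits, Adcy5 and Adcy6, were higher in IP. Of the 3 isoforms that calcium with calmodulin can stimulate, Adcy1 and Adcy8 were several-fold lower and Adcy3 was higher. Adcy5 (ENSMUSG00000022840, chromosome 16, 35154877 to 35305738, plus strand, GRCm38), a calcium-inhibited cyclase abundant in the striatum, measured 63.9, 65.3, 64.0 and 67.5 CPM in input replicates 1 to 4 and 96.6, 84.5, 94.0 and 106 CPM in IP replicates 1 to 4. Every IP library lay above every input library. Its log2 fold change was 0.55 ± 0.08 (SE; edgeR adjusted p = 0.00016). Adcy6 (chromosome 15, 98589973 to 98610076, minus strand), its closest relative, measured 13.2, 12.7, 12.3 and 13.0 CPM in input and 21.4, 24.7, 23.9 and 33.9 CPM in IP. The fractions did not overlap, IP replicate 4 was the highest, and the log2 fold change was 1.02 ± 0.15 (adjusted p = 0.000166). Adcy3, a cyclase of primary cilia and of olfactory neurons, stood at 9.77 ± 1.71 CPM in input and 15.2 ± 2.30 CPM in IP (SD, n = 4), a log2 fold change of 0.64 ± 0.17 (adjusted p = 0.00888). Exons of Adcy3 overlap those of Cenpo on the opposite strand over up to 921 bases, and Cenpo itself measured 6.27 CPM in input and 7.32 CPM in IP. The estimated counts of Adcy3 and Adcy6 were not whole numbers in any of the 8 libraries, so part of their reads was divided between features.

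Adcy1 (ENSMUSG00000020431, chromosome 11, 7063489 to 7178506, plus strand), a neuronal cyclase activated by calcium with calmodulin, measured 62.2, 75.8, 56.3 and 97.3 CPM in input and 5.20, 14.3, 16.7 and 21.8 CPM in IP. All 4 IP libraries were below all inputs, although both fractions varied widely and IP replicate 1 was the lowest. Its log2 fold change of -2.33 ± 0.35 was the lowest of the 40 genes (adjusted p = 0.000218). Adcy8 (chromosome 15, 64697084 to 64922296, minus strand), the other calmodulin-activated neuronal cyclase, measured 15.7, 12.6, 12.8 and 15.2 CPM in input and 2.30, 4.59, 1.59 and 3.07 CPM in IP. Again no libraries overlapped, and the log2 fold change was -2.29 ± 0.29 (adjusted p = 6.77e-05). Adcy7, a cyclase prominent in immune cells, fell by 1.67 on the log2 scale (SE 0.45, adjusted p = 0.0108) from a low level of 3.80 ± 0.520 CPM. Its lowest library, IP replicate 3, held 24 counts, the fewest of any member in any library. Adcy2 fell from 22.7 ± 2.45 to 14.9 ± 3.64 CPM (-0.61 ± 0.17, adjusted p = 0.0132). Adcy9, a widely expressed isoform, had -0.72 ± 0.31 and did not pass the threshold (adjusted p = 0.0811), though it passed without IP replicate 4 (-0.97, adjusted p = 0.0261), with upper quartile factors (0.0434), in DESeq2 (0.044) and in limma-voom (0.0343).

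Counts per kilobase of the longest protein-coding transcript allow the cyclases to be compared with each other. On this scale the family as a whole was at 28.5 ± 2.09 in input and 27.0 ± 3.14 in IP (SD, n = 4), so the summed level differed by less than the spread while its make-up differed. Adcy5 held 32.7% ± 1.56 of the cyclase level in input and 50.6% ± 5.23 in IP. The share of Adcy1 was 20.6% ± 3.58 in input and 4.30% ± 1.82 in IP, that of Adcy8 7.06% ± 0.804 and 1.52% ± 0.645, and that of Adcy6 7.45% ± 0.498 and 15.8% ± 1.51. In IP Adcy5 was followed by Adcy6 (15.8%), Adcy2 (13.0% ± 2.25) and Adcy3 (11.5% ± 2.04), the last pair within each other's spread. With the mean transcript length Adcy5 held 55.5% ± 4.70 and Adcy6 19.9% ± 1.95 in IP, while Adcy3 (10.2% ± 1.93) stood above Adcy2, whose share was 7.53% ± 1.47. The ratio of the calcium-inhibited pair Adcy5 and Adcy6 to the calcium-stimulated Adcy1, Adcy3 and Adcy8 was 1.21, 1.17, 1.38 and 0.939 in input libraries and 4.41, 2.95, 4.20 and 4.03 in IP libraries, although Adcy3, within the denominator, was itself higher in IP.

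**Figure D2:**
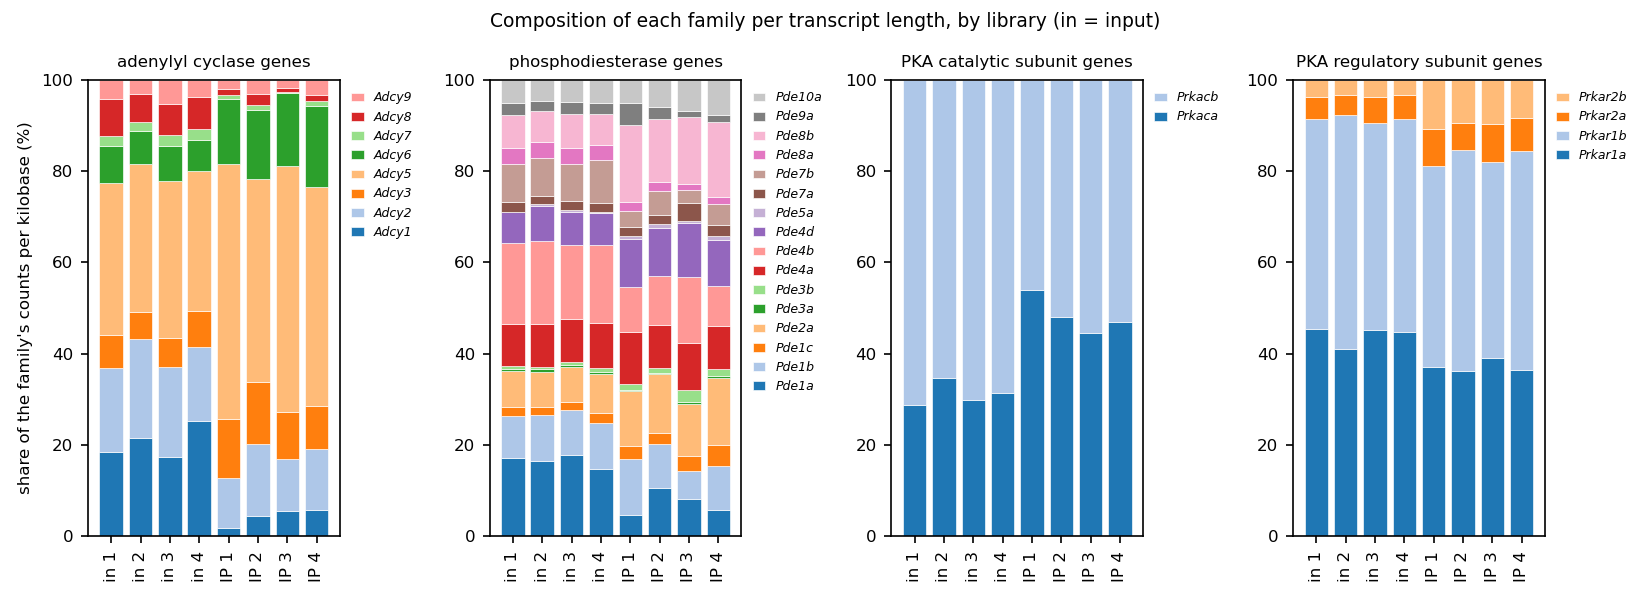
Share of each family's counts per kilobase held by each member, in percent, 1 stacked bar per library, for adenylyl cyclases, phosphodiesterases, PKA catalytic subunits and PKA regulatory subunits. Adcy5 takes 32.7% of the cyclase level in input and 50.6% in IP, and Prkaca goes from 31.1% to 48.4% of the catalytic subunit level.

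Phosphodiesterases were lower in IP more often than higher: 8 of 16 fell, 1 rose and 7 did not pass the threshold. The 50% lower and 6.25% higher stand beside 20.9% and 24.5% of all genes tested. Pde1a (ENSMUSG00000059173, chromosome 2, 79834453 to 80129458, minus strand) encodes a phosphodiesterase switched on by calcium with calmodulin. It measured 91.3, 94.5, 94.2 and 75.7 CPM in input and 14.6, 35.1, 24.9 and 17.1 CPM in IP, with no overlap and with input replicate 4 as the lowest input. The log2 fold change was -1.96 ± 0.23 (adjusted p = 4.14e-05). Its relative Pde1b fell from 40.4 ± 2.81 to 22.7 ± 6.28 CPM (-0.83 ± 0.18, adjusted p = 0.00275), whereas the third PDE1 gene, Pde1c, stood at 21.0 ± 0.960 CPM in input and 20.7 ± 5.11 CPM in IP (-0.02 ± 0.16, adjusted p = 0.929). The sign of Pde1c changed among the alternatives, between -0.19 and 0.21.

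The cAMP-specific families PDE4, PDE7 and PDE8 contained the strongest decreases after Pde1a and a single increase. Pde4b (chromosome 4, 102087543 to 102607259, plus strand) measured 95.5, 105, 86.8 and 88.9 CPM in input and 31.4, 35.6, 44.5 and 26.8 CPM in IP. The fractions were far apart, at a log2 fold change of -1.44 ± 0.14 (adjusted p = 8.68e-06). Pde4a fell less, from 55.7 ± 2.42 to 34.7 ± 3.73 CPM (-0.68 ± 0.09, adjusted p = 0.000107). Pde4d, the isoform group linked to memory, had -0.20 ± 0.10 (adjusted p = 0.145) and passed the threshold as lower with upper quartile factors (-0.33, adjusted p = 0.0232).

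Members of the PDE7 and PDE8 families, which have a high affinity for cAMP, differed from each other within each family. Pde7b measured 43.8, 46.2, 41.4 and 46.9 CPM in input and 10.8, 17.1, 8.76 and 13.6 CPM in IP, a separation of -1.83 ± 0.18 in log2 (adjusted p = 9.69e-06). Pde7a stood at 15.6 ± 1.07 CPM in input and at 9.84, 9.38, 17.2 and 10.3 CPM in IP, where replicate 3 was higher than every input. With all libraries it was not called (-0.41 ± 0.20, adjusted p = 0.111), and without IP replicate 3 it was called lower (-0.66, adjusted p = 0.00109). Pde8a (chromosome 7, 81213596 to 81334533, plus strand) measured 16.4, 17.8, 15.9 and 15.2 CPM in input and 5.08, 5.43, 3.51 and 3.85 CPM in IP. These groups were clearly separate, with a log2 fold change of -1.87 ± 0.18 (adjusted p = 6.87e-06). Its paralogue Pde8b (chromosome 13, 95024454 to 95250336, minus strand), an isoform of brain, adrenal and thyroid, went the other way, with 38.4, 39.1, 39.3 and 35.3 CPM in input and 53.3, 45.9, 44.7 and 48.7 CPM in IP. Pde8b was the only phosphodiesterase called higher (0.34 ± 0.09, adjusted p = 0.00729), and it lost the call with upper quartile factors (0.20, adjusted p = 0.0698).

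Phosphodiesterases that hydrolyse both cyclic nucleotides, or cyclic GMP alone, included few further calls. Pde3a, which cyclic GMP inhibits, fell from 7.66 ± 0.676 to 3.11 ± 1.42 CPM (-1.31 ± 0.32, adjusted p = 0.00591). Its paralogue Pde3b, the isoform through which insulin and leptin lower cAMP, measured 5.53, 5.06, 4.77 and 6.03 CPM in input and 6.16, 5.80, 12.7 and 6.46 CPM in IP. IP replicate 3 stood far above the other IP libraries and enlarged the difference, and Pde3b was not called (0.54 ± 0.27, adjusted p = 0.118). Without that library the log2 fold change was 0.20. With GC and length offsets Pde3b passed the threshold (0.71, adjusted p = 0.0424). Pde10a, abundant in striatal neurons, fell modestly from 47.9 ± 0.905 to 35.7 ± 5.41 CPM (-0.43 ± 0.11, adjusted p = 0.00778), and its call ended under offsets for GC and length (-0.28, adjusted p = 0.0733). Pde2a, stimulated by cyclic GMP, had -0.10 ± 0.09 (adjusted p = 0.410). The cyclic GMP enzymes Pde5a (0.42 ± 0.33, adjusted p = 0.331) and Pde9a (-0.66 ± 0.37, adjusted p = 0.170) did not pass the threshold. Pde9a varied from 2.09 to 7.54 CPM in IP and was called lower without IP replicate 1 (-1.13, adjusted p = 0.00794).

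Per kilobase, the 16 phosphodiesterases summed to 126 ± 5.87 in input and 73.3 ± 3.33 in IP. Pde4b and Pde1a led in input, with 17.3% ± 0.843 and 16.5% ± 1.35 of the phosphodiesterase level. In IP the leading gene was Pde8b, with 15.5% ± 1.44 against 7.12% ± 0.305 in input, followed by Pde2a with 12.7% ± 1.32, Pde4b with 11.0% ± 2.40, Pde4d with 10.7% ± 0.883 and Pde4a with 10.2% ± 0.985. The last 3 of these lie within each other's spread. With the mean transcript length Pde8b still led in IP (17.0% ± 1.86), followed by Pde4d (12.8% ± 0.732), Pde4b (12.7% ± 2.38) and Pde10a (8.66% ± 1.47), and Pde2a held 6.83% ± 0.803. The table's identifier for Pde2a carries another symbol in GENCODE M21, where a further gene model named Pde2a shares 1364 exon bases with it, so the count and length of Pde2a are less certain.

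Among PKA genes, those of both type II regulatory subunits and of the alpha catalytic subunit were higher in IP with the larger differences, and Prkar1b and Pkig were called higher with smaller ones. Prkar2b (ENSMUSG00000002997, chromosome 12, 31958476 to 32061296, minus strand) encodes RII beta, the regulatory subunit typical of neurons and fat. It measured 42.7, 38.2, 42.3 and 36.6 CPM in input and 167, 136, 126 and 120.0 CPM in IP. The lowest IP library lay far above the highest input, and the log2 fold change of 1.78 ± 0.11 was the highest of the 40 genes (3.43-fold, adjusted p = 2.63e-07). Prkar2a (chromosome 9, 108689314 to 108750436, plus strand), the gene of the widely expressed RII alpha, measured 82.7, 77.4, 90.7 and 81.1 CPM in input and 186, 124, 159 and 154 CPM in IP. The 2 fractions were separate (0.91 ± 0.11, adjusted p = 4.83e-05).

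Type I regulatory subunits, which are mainly cytosolic, differed little between the fractions. Prkar1b, the neuronal RI beta gene, measured 416, 477, 392 and 394 CPM in input and 540.2, 546, 439 and 544 CPM in IP. It was called higher (0.30 ± 0.09, adjusted p = 0.0172), but IP replicate 3 lay below input replicate 2, and the call ended with upper quartile factors (0.17, adjusted p = 0.146). Prkar1a, the general RI alpha gene, stood at 519.8 ± 20.4 CPM in input and 557 ± 31.4 CPM in IP (0.10 ± 0.06, adjusted p = 0.213). It passed as higher with library totals alone (0.20, adjusted p = 0.0197) and under offsets for GC and length (0.24, adjusted p = 0.00573), and had -0.04 with upper quartile factors.

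The catalytic subunit genes also separated. Prkaca (ENSMUSG00000005469, chromosome 8, 83972993 to 83996443, plus strand), the gene of C alpha, measured 127, 157, 136 and 131 CPM in input and 289, 247, 255 and 255 CPM in IP, with no overlap and a log2 fold change of 0.92 ± 0.08 (adjusted p = 4.4e-06). Prkacb, the gene of C beta, measured 604, 569, 612 and 549 CPM in input and 471, 509, 609 and 548 CPM in IP, and was not called (-0.13 ± 0.08, adjusted p = 0.225). Prkacb was called lower with upper quartile factors (-0.26, adjusted p = 0.0216) and without IP replicate 3 (-0.19, adjusted p = 0.0421), and stood at 0.03 with GC and length offsets.

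**Figure D3:**
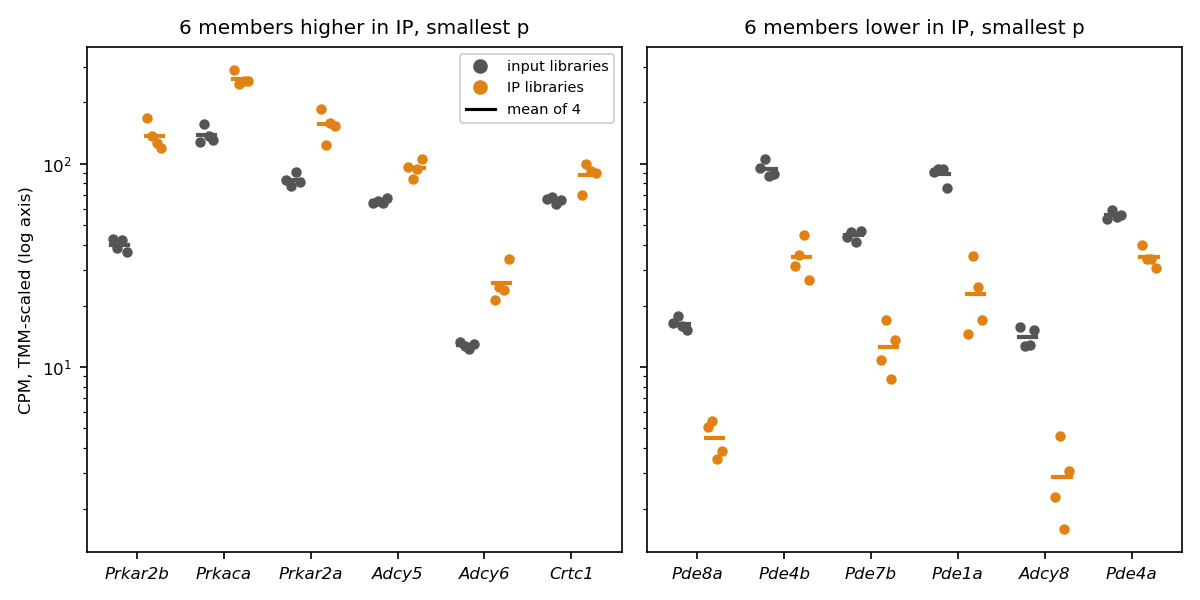
CPM on a log axis in each of 4 input and 4 IP libraries, with the mean of each fraction as a line, for the 6 higher and the 6 lower genes of smallest p. In each of these 12 genes the IP and input libraries do not overlap. IP libraries of Adcy8 spread between 1.59 and 4.59 CPM, while those of Prkaca lie between 247 and 289 CPM.

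Per kilobase, RI genes remained the bulk of the regulatory subunit RNA in both fractions. Prkar1b held 47.4% ± 2.68 in input and 45.9% ± 2.69 in IP, and Prkar1a 44.1% ± 2.04 and 37.2% ± 1.24. Prkar2b held 3.53% ± 0.279 in input and 9.51% ± 0.987 in IP, and Prkar2a 4.99% ± 0.483 and 7.37% ± 1.11. The order of these genes rests on the transcript length: Prkar2b was above Prkar2a in each IP library with the longest transcript, whereas with the mean transcript length Prkar2a stayed above it, at 10.9% ± 1.64 of the IP level against 5.23% ± 0.563. The share of Prkar2b was higher in IP than in input with either length (1.92% ± 0.157 in input with the mean length). The ratio of type II to type I was 0.0934, 0.0826, 0.104 and 0.093 in input libraries and 0.231, 0.18, 0.219 and 0.183 in IP libraries, and averaged 0.102 and 0.193 with the mean length. Prkaca held 31.1% ± 2.54 of the catalytic level in input and 48.4% ± 4.00 in IP, where its level (115 ± 8.21 counts per kilobase and M) was close to that of Prkacb (123 ± 13.5). With the mean transcript length Prkaca held 26.0% ± 2.29 in input and 42.2% ± 3.93 in IP. Regulatory over catalytic RNA was 1.72 ± 0.0607 in input and 1.80 ± 0.191 in IP, a difference smaller than the spread. Among 14575 protein-coding genes ranked per kilobase, Prkar2b went from percentile 75.9 in input to 91.5 in IP, while Prkar1a, Prkar1b, Prkaca and Prkacb were at or above percentile 96.0 in both fractions.

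The inhibitor peptides, which bind free catalytic subunits as pseudosubstrates, gave no firm difference. Pkia was the most abundant of them, with 252 ± 28.1 CPM in input and 257 ± 42.4 CPM in IP (0.03 ± 0.12, adjusted p = 0.864), and it held 83.0% ± 1.42 and 82.1% ± 3.67 of the inhibitor level per kilobase. Under GC and length offsets Pkia was called higher (0.45, adjusted p = 0.00286), and with upper quartile factors it stood at -0.11. Pkib had -0.23 ± 0.11 (adjusted p = 0.119). Pkig measured 7.10, 7.28, 6.24 and 6.28 CPM in input and 8.58, 9.73, 8.02 and 9.73 CPM in IP, and passed narrowly (0.42 ± 0.16, adjusted p = 0.0478). That call ended in 14 of 18 alternatives, with 0.02 under GC and length offsets (adjusted p = 0.933) and adjusted p-values of 0.0842, 0.072, 0.121 and 0.117 without input replicates 1 to 4, and of 0.0825 and 0.0792 without IP replicates 2 and 4.

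Because the PKA subunit genes moved to different degrees, their promoters were searched for the cAMP response element, TGACGTCA, and for its short form TGACG on either strand, which the full element contains. Windows of 300 bases from RefSeq (GRCm38.p6), 250 before and 50 after an annotated start, were at hand for 31 of the 40 genes, in 71 windows. The full element was present in 2 overlapping windows of Prkar1a (2.82%), at the same position, beside 1.79% of all 32851 windows, and the short form in 17 windows (23.9%, beside 20.8%). By gene, 15 of 31 members had the short form (48.4%, beside 23.0% of 27025 genes). Members had more windows per gene (71 for 31 genes) than all genes (32851 for 27025), so these shares by gene rest on unlike amounts of sequence. Shown first are the 100 bases before the farthest upstream start listed for each of the 3 PKA genes that differed most between fractions, then 30 bases around the element of Prkar1a, which was not called. These starts are those of RefSeq. In GENCODE, 19 of the Prkar2b bases shown are exonic, and the Prkar2a gene begins upstream of its window, at 108689314. Capitals mark the full or short element, and each sequence reads toward the gene.
Prkar2b, chr12:32061278-32061377, minus strand: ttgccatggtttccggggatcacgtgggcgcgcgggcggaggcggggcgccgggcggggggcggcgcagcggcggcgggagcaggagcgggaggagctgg
Prkar2a, chr9:108692043-108692142, plus strand: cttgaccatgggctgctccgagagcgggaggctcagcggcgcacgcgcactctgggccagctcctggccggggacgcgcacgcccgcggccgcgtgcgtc
Prkaca, chr8:83972878-83972977, plus strand: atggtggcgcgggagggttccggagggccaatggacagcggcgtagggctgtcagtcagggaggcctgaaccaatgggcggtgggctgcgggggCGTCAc
Prkar1a, chr11:109650889-109650918, plus strand: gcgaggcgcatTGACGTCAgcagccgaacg
The shown windows of Prkar2b, Prkar2a and Prkaca are rich in G and C (81%, 77% and 70%), and that of Prkaca holds the short form whole. In Prkar2a the last letters shown are the beginning of a short form that crosses the start. The Prkar1a element begins 49 bases before the start site of its window. A match of letters is a description of the sequence and not evidence of binding.

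The EPAC genes were lower or not called. Rapgef3, which encodes the exchange factor found in many tissues, measured 12.4, 13.3, 13.4 and 15.0 CPM in input and 10.3, 7.72, 10.8 and 10.6 CPM in IP (-0.45 ± 0.15, adjusted p = 0.0294). The fractions did not overlap, but the call ended with library totals alone (-0.35, adjusted p = 0.0767), without input replicate 1, 2, 3 or 4 (adjusted p = 0.0518, 0.0693, 0.0732 and 0.108) and without IP replicate 2 (0.0532). Rapgef4, the EPAC gene typical of brain and endocrine cells, was the more abundant per kilobase, at 18.6 ± 2.19 in input and 16.0 ± 2.03 in IP, against 3.38 ± 0.276 and 2.46 ± 0.361 for Rapgef3. It had -0.21 ± 0.11 (adjusted p = 0.138) and was called lower only with upper quartile factors (-0.35, adjusted p = 0.0205).

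At the transcriptional end of the pathway, 2 of 3 CRTC coactivator genes were higher in IP and Creb1 was slightly lower. Crtc1 (chromosome 8, 70382355 to 70439579, minus strand), the coactivator most abundant in neurons, measured 66.7, 68.3, 63.0 and 66.6 CPM in input and 70.0, 99.3, 91.9 and 89.9 CPM in IP. IP replicate 1 was just above the highest input, and the log2 fold change was 0.41 ± 0.10 (adjusted p = 0.00644). Crtc2, known for glucose production in liver, stood at 9.66 ± 0.558 CPM in input and 14.2 ± 3.19 CPM in IP (0.55 ± 0.17, adjusted p = 0.0233). The Crtc2 call ended without input replicate 1 (adjusted p = 0.0659) or 4 (0.0503), without IP replicate 2 (0.0606) or 4 (0.0555), with upper quartile factors (0.0743), and with the replicate block together with GC and length offsets (0.0529). Crtc3 had 0.31 ± 0.14 (adjusted p = 0.0970) and was called higher without IP replicate 3 (0.41, adjusted p = 0.0131) and with library totals alone (0.0300). Crtc1 held 64.8% ± 1.22 of the CRTC level per kilobase in input and 64.2% ± 2.95 in IP.

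Creb1, the gene of the cAMP response element binding protein, measured 71.2, 77.4, 72.6 and 66.8 CPM in input and 60.6, 63.0, 54.0 and 64.0 CPM in IP. All IP libraries were below the inputs by a small margin (-0.25 ± 0.08, adjusted p = 0.0231). The sign turned with GC and length offsets (0.17, adjusted p = 0.214), and the call ended with library totals alone (-0.16) and without input replicate 1 (adjusted p = 0.0563), 2 (0.0818) or 3 (0.0622). Crem, whose alternative products include cAMP-induced repressors, measured 6.32, 7.41, 9.26 and 22.4 CPM in IP replicates 1 to 4 and 8.84 ± 0.826 CPM in input. IP replicate 4 alone exceeded the inputs, and without it the log2 fold change went from 0.35 ± 0.35 (adjusted p = 0.436) to -0.20 (adjusted p = 0.401).

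Other genes of the pathway, from lists of its neighbours, moved in both directions. Counts of calls in these lists stand beside 24.5% higher and 20.9% lower among all genes tested. Of 7 alpha subunits of the Gs and Gi classes, 4 were higher (57.1%) and 2 lower (28.6%), with a median log2 fold change of 0.59. The largest increases by p were those of the Gi class genes Gnai2 (1.32 ± 0.06, adjusted p = 2.42e-08) and Gnaz (0.88 ± 0.07), while Gnai1 (-0.32 ± 0.07) and Gnai3 (-0.28 ± 0.10) fell. A-kinase anchoring proteins, which tether PKA through its regulatory subunits, had 1 of 16 tested members higher (6.25%) and 6 lower (37.5%), with a median of -0.43. Akap9, a large centrosomal and Golgi scaffold, fell from 210.4 ± 12.8 to 109 ± 16.0 CPM (-0.95 ± 0.10), Sphkap, an anchoring protein that prefers type I PKA, fell from 61.4 ± 7.51 to 19.7 ± 6.22 CPM (-1.64 ± 0.20), and Akap13 rose (0.33 ± 0.10). Of 9 tested further cAMP effectors and Rap GTPases, 6 were higher (66.7%) and 3 were not called, with a median of 0.44. The GTPase gene Rap2b was among the higher ones (0.87 ± 0.12).

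Kinases and phosphatase subunits that act on CRTC proteins had 1 of 8 higher and 3 lower, with a median of -0.09. These are 12.5% and 37.5%, beside 24.5% and 20.9% of all genes tested. The calcineurin catalytic genes differed, Ppp3cb being higher (0.40 ± 0.07) and Ppp3ca lower (-0.70 ± 0.09), as was the regulatory gene Ppp3r1 (-0.36 ± 0.07). Of the CREB relative Atf1 and 2 acetyltransferase cofactors, Atf1 rose (0.70 ± 0.09) and Crebbp fell (-0.39 ± 0.08). Known CREB target genes were 5 higher and 4 lower of 14, with a median of -0.24. Their shares of 35.7% and 28.6% stand beside the same 24.5% and 20.9%. The prohormone convertase gene Pcsk1 (1.16 ± 0.11) and the granin gene Scg2 (0.71 ± 0.08) were higher, and Nr4a2 (-1.97 ± 0.28) and Ppargc1a (-0.60 ± 0.14) were lower. Only 4 of 11 remaining genes of the cyclase, phosphodiesterase and kinase families were abundant enough to test, and of these the PKA-related kinase gene Prkx was lower (-0.86 ± 0.20), the other 3 not being called.

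**Figure D4:**
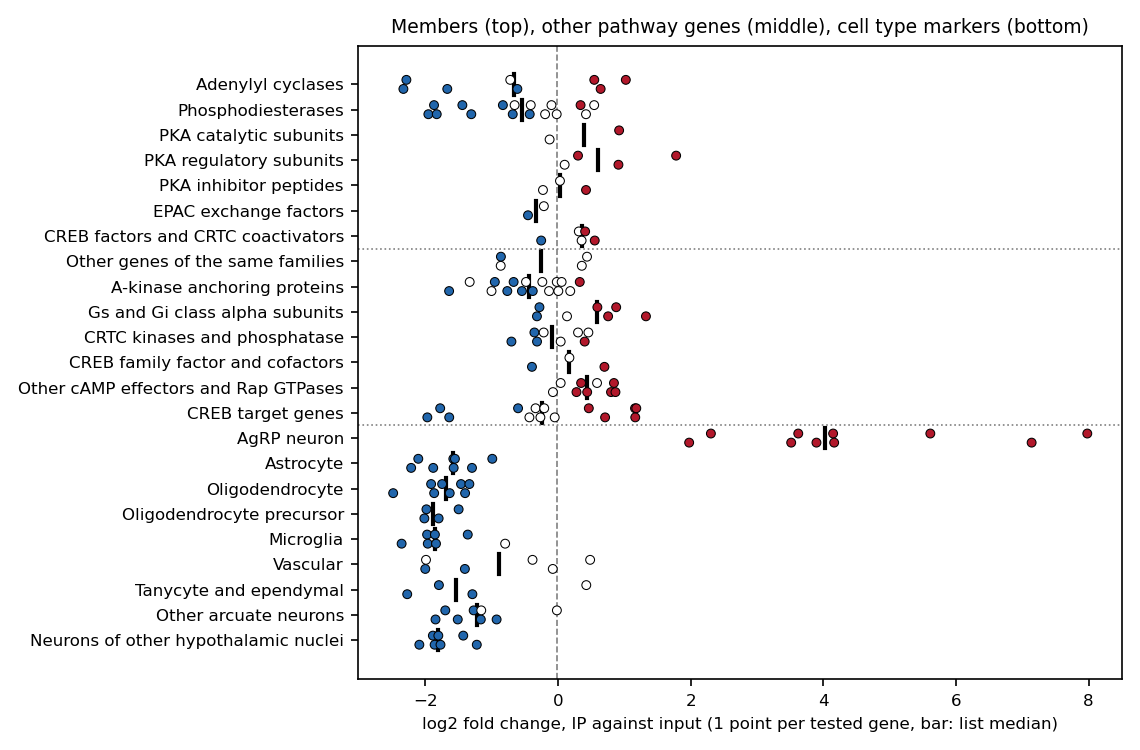
Log2 fold change of each tested gene by list, with 1 point per gene, a bar at the list median and a dashed line at the median of all genes (-0.01); red points are called higher in IP, blue ones lower. The AgRP neuron markers lie between 1.98 and 7.98, and the astrocyte markers between -2.22 and -0.99, a range that also holds Adcy7, Pde1a, Pde3a, Pde4b, Pde7b and Pde8a.

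Set beside the marker lists in the plot of all lists, no cAMP gene reached the level of enrichment of the AgRP neuron markers. Prkar2b at 1.78 was below 1.98, the lowest value among those 10 markers. Adcy1, Adcy8, Pde1a, Pde8a and Pde7b, at -2.33 to -1.83, were lower than the medians of the astrocyte markers (-1.58) and the oligodendrocyte markers (-1.69). They were also below the medians for neurons in other nuclei (-1.81), other arcuate neurons (-1.22), tanycyte and ependymal cells (-1.54) and vascular cells (-0.90). The medians of the oligodendrocyte precursor markers (-1.89) and the microglia markers (-1.86) lay within the range of these genes. These 5 genes still gave 110 or more counts in every IP library. IP replicates of the members varied by a median coefficient of variation of 16.8% against 8.04% in input, close to the 17.2% and 7.34% of the 11674 tested genes averaging 3 CPM or more. Crem (65.7%), Pde9a (61.1%) and Adcy7 (52.1%) were the most variable members within IP, and Prkar1a (5.63%), Prkaca (7.14%) and Creb1 (7.42%) the least.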

How the data were processed

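The deposited table holds estimated counts per gene for 8 libraries, 4 IP and 4 input; per the submitters' processing notes the authors used Salmon 0.14.1 and the build GRCm38.p6. No annotation release, trimming or strand setting is given in the sources used here. Whether reads of genes on opposite strands were told apart is therefore not known (13 members share exon bases with another gene, on either strand). Groups and replicate numbers came from the sample titles. The rounded counts went into edgeR 4.0.16 (R 4.3.3): filterByExpr (minimum count 10), TMM factors, quasi-likelihood test without covariate, Benjamini-Hochberg adjustment over 17000 genes. Standard errors were derived as log2 fold change over the root of the F statistic. Transcript length, GC content and coordinates came from GENCODE M21 (GRCm38), with values for 99.4% of tested genes. The code was tested on simulated data. Alternatives were other scalings and filters, DESeq2 1.42.0, limma-voom (limma 3.58.1), a replicate block, GC and length offsets (mgcv 1.9.3) and leaving out each library. All 40 members may be named; of each other pathway list, the 2 genes of smallest p per direction, of which 1 is not reported here. The members and lists were chosen with earlier results of these data known. Replicates are separate pools of mice per the labels.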

Additional observations from a re-analysis of the deposited data

Results flagged for a closer look

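In 6 of 80 sets of 4 libraries, 1 library stood apart from its group by Dixon's criterion, and chance alone gives about 1 in 20. Pde3b and Pde7a were high in IP replicate 3, at 12.7 CPM beside 5.80 to 6.46 CPM and at 17.2 CPM beside 9.38 to 10.3 CPM, and Prkar1b was low there, at 439 CPM beside 540.2 to 546 CPM. Rapgef3 was low in IP replicate 2, at 7.72 CPM beside 10.3 to 10.8 CPM. In input replicate 4, Pde1a was low, at 75.7 CPM beside 91.3 to 94.5 CPM, and Crtc3 was high, at 15.4 CPM beside 13.9 to 14.1 CPM.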

How the results depend on the processing

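Of 18 alternatives, all left 7 of the 11 higher and 11 of the 14 lower members with the same direction and call; the exceptions were Pde8b, Prkar1b, Pkig and Crtc2, and Pde10a, Rapgef3 and Creb1. Higher members numbered 7 with upper quartile factors and 9 to 12 when a library was left out, and lower members 12 to 16. IP and input share replicate numbers, but same-numbered libraries deviated together only weakly (correlations of 0.0696, 0.0484, 0.0581 and 0.0836 over genes), although each library correlated best with its own number. With the replicate block 10 members were higher and 14 lower, and Pkig alone changed its call (adjusted p = 0.0988). With block and GC and length offsets the counts were 11 and 12.

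Signs turned for Pde1c with library totals alone (0.076), offsets (0.21), offsets and block (0.17) and without single libraries (-0.19 to 0.074), for Prkacb (0.028 and 0.023), Pkib (0.19 and 0.17) and Creb1 (0.17 and 0.16) with offsets and with offsets and block, for Prkar1a with upper quartile factors (-0.036), for Pkia with RLE factors (-0.0042), upper quartile factors (-0.11), DESeq2 (-0.0043) and without single libraries (-0.075 to 0.12), and for Crem without IP replicate 4 (-0.20, against up to 0.55 without another library). The cause was not tested.

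With the mean transcript length, shares in input became 40.3% for Adcy5, 7.85% for Pde8b, 74.0% for Prkacb, 50.9% for Prkar1b, 85.0% for Pkia and 59.8% for Crtc1, and in IP 17.0% for Pde8b, 57.8% for Prkacb, 49.9% for Prkar1b and 59.7% for Crtc1. The order of Prkar2a and Prkar2b and of Adcy2 and Adcy3 in IP turned, and Pde2a fell from 12.7% to 6.83% and Adcy2 from 13.0% to 7.53%. Members with few counts, such as Adcy7, allow only large differences to be seen.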
